A study of Mus musculus with 9 samples.

Results

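The 10 genes described here encode the peptide hormones of the enteroendocrine cells of the gut, namely secretin (Sct), cholecystokinin (Cck), gastric inhibitory polypeptide (Gip), ghrelin (Ghrl), somatostatin (Sst), neurotensin (Nts), proglucagon (Gcg), peptide YY (Pyy), gastrin (Gast) and islet amyloid polypeptide (Iapp). They were chosen by name, not by a threshold on their values, from 29288 genes in the count table, and earlier results of these data were known at that time. All 10 were matched by symbol and Ensembl identifier, and 9 of them passed the low-count filter of the test, Gast being the exception. RNA was sequenced from intestinal epithelial cells (IECs) of wild-type female C57BL/6J mice. Live EpCAM+ Ter119- CD31- CD45- cells had been sorted from crypts of the proximal small intestine. The control group (3 mice) received PBS intraperitoneally and was sampled at 18 h. The 18h-αGal and 72h-αGal groups (3 mice each) received 2 µg of α-galactosylceramide (αGalCer), a lipid antigen that activates natural killer T (NKT) cells, and were sampled 18 h and 72 h later. The comparisons address how the epithelium responds to NKT cell activation. The controls were all labelled 18 h, so at 72 h treatment and time of sampling cannot be told apart.

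Enteroendocrine cells are scattered single cells of the epithelium that sense the content of the lumen and release peptides from dense-core granules into the blood and onto nearby cells and nerves. They arise from crypt progenitors that express the transcription factor Neurog3, and the hormones that a cell makes depend on its position along the gut and along the crypt-villus axis. In the duodenum, secretin, cholecystokinin, gastric inhibitory polypeptide, ghrelin and somatostatin are typical products, whereas peptide YY and neurotensin are typical of the more distal gut. In bulk RNA, fewer hormone-producing cells and less hormone RNA per cell cannot be told apart.

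Upstream promoter sequence is shown for the 3 hormones with the clearest differences between groups and an unambiguous start (Sst, Gip and Gcg), and for Sct, which differed least between 18h-αGal and control mice among the abundant members. Each run holds the 250 bases before the RefSeq transcription start in mouse build GRCm38.p6, written 5′ to 3′ on the strand of the gene. The windows are chr16:23890845-23891094 on the minus strand for Sst, chr11:96024295-96024544 on the plus strand for Gip, chr2:62483654-62483903 on the minus strand for Gcg and chr7:141279134-141279383 on the minus strand for Sct. Capitals mark 3 motifs, the E-box CANNTG that basic helix-loop-helix factors such as Neurog3 and Neurod1 can bind, the cAMP response element TGACGTCA and the TATA box TATAAA, searched on both strands.
Sst: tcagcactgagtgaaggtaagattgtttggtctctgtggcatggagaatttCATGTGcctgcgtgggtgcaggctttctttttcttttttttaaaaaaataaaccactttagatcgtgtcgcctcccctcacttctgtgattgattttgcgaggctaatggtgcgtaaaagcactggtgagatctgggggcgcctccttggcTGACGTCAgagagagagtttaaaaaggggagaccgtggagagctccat
Gip: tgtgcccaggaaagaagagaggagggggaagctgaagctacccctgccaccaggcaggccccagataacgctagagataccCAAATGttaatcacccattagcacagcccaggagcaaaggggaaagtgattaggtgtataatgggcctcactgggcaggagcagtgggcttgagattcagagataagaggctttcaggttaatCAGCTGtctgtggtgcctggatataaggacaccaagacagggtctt
Gcg: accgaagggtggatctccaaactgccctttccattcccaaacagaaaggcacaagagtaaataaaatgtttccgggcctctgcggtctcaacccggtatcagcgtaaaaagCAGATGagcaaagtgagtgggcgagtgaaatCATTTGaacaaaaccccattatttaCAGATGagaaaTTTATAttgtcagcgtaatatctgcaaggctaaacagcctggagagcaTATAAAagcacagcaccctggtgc
Sct: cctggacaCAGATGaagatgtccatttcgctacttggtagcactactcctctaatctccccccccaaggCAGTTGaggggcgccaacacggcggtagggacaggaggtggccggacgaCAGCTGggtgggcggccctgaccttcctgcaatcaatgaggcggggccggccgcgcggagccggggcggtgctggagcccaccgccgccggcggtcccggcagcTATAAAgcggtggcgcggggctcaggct
The full cAMP response element starts at position -48 of Sst, counted from the start site, and was in the window of no other member. It was present in 1.55% of 32817 RefSeq promoter windows of the same length. TATA boxes on the strand of the gene start at -24 in Gcg and at -28 in Sct, and Gcg holds a match on the opposite strand at -72. A TATA box on either strand was found in 12.4% of all windows, and an E-box in 66.2% of them. E-boxes start at -199 in Sst, at -169 and -46 in Gip, at -139, -108 and -83 in Gcg and at -242, -181 and -132 in Sct. No 2 of these motifs overlapped in the runs shown. At least 1 window of each of the 10 members held an E-box, and RefSeq listed 4 starts for Ghrl and 2 for Pyy. A match of letters is a description of the sequence and does not show that a factor binds there.

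Total counts per library ranged from 8887861 in control replicate 3 to 32722293 in control replicate 1, a 3.68-fold range, so low hormones were measured with less precision in control replicate 3. Control replicate 3 also had the highest summed enterocyte markers of the 9 libraries (302600 normalised counts) and, among controls, the lowest summed stem cell markers (42510). Values per mouse are given as the deposited normalised counts, which are read counts divided by a size factor for each library. The 10 hormones together took 0.0317% ± 0.0048 of all normalised counts in control mice (SD, n = 3), 0.0556% ± 0.0164 in 18h-αGal mice and 0.0181% ± 0.0047 in 72h-αGal mice, and the mice of the 3 groups did not overlap in this share.

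To compare levels between hormones, normalised counts were divided by gene length. Per kilobase of exon, Gip stood first in control mice with 1957 ± 352 (SD, n = 3), followed by Gcg with 619.5 ± 182, and the mice of these neighbours did not overlap. Sct (424 ± 168), Ghrl (408 ± 45.7), Cck (342 ± 193) and Sst (280.0 ± 52.6) came next, and each overlapped its neighbour in the order. A gap followed, with no overlap between Sst and Nts, and Nts (36.8 ± 46.6), Iapp (29.4 ± 19.8) and Pyy (20.4 ± 26.6) had lower levels that overlapped from each to the next. Gast had no read in any control mouse. The annotated exons of Cck and Sst (5.459 and 3.628 kb) are far longer than their coding parts (0.402 and 0.348 kb), and per kilobase of coding sequence Cck stood first (4645 ± 2625), followed by Gip (3664 ± 659), Sst (2919 ± 548) and Gcg (1764 ± 517), with overlap from each of these to the next. Nts, Iapp, Pyy and Gast held the lowest 4 places on both scales. Gip, Cck, Gcg and Sst thus held the first places per coding kilobase, while the order among them depended on the length used.

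**Figure D1:**
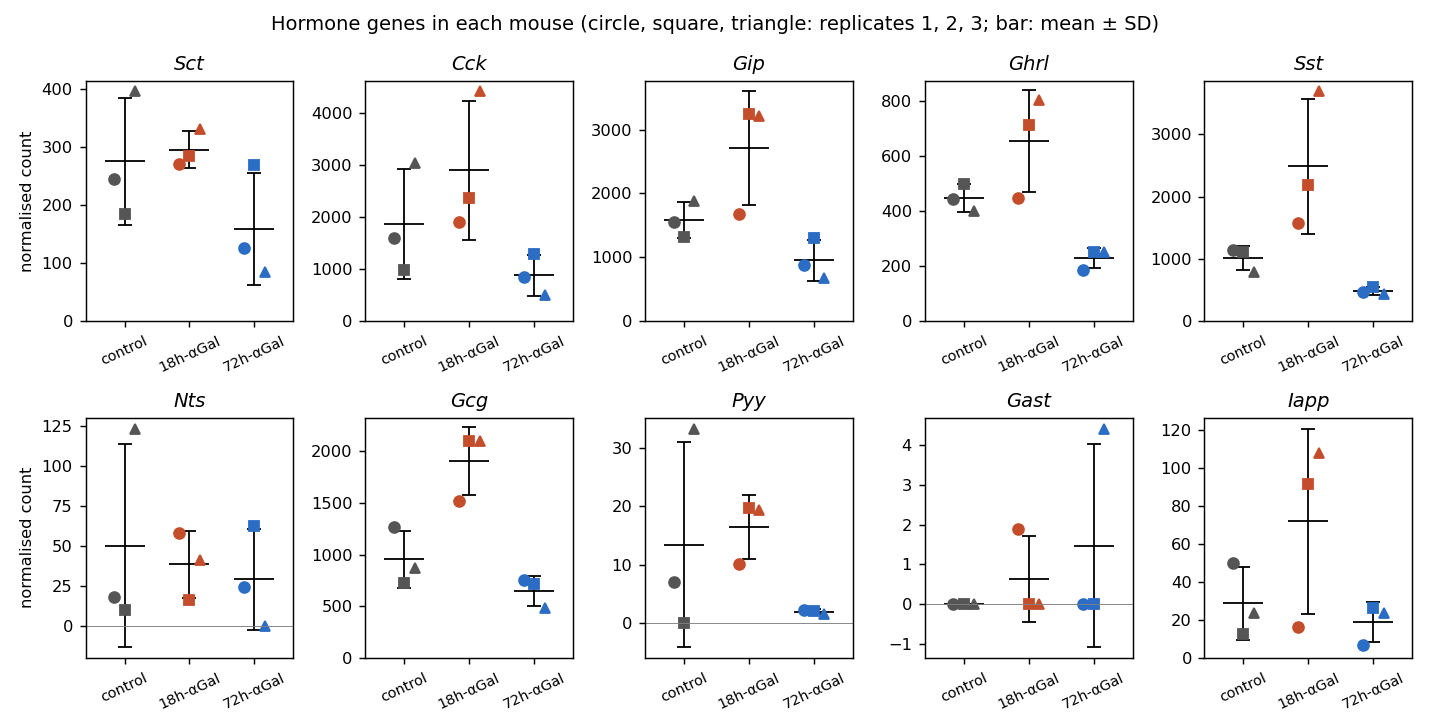
Normalised count (linear axis, 1 panel per hormone gene) in each mouse of the control, 18h-αGal and 72h-αGal groups. Symbols are mice and the bar is the mean ± SD of 3 mice. The 18h-αGal mice lie above all control mice for Sst and Gcg, and the 72h-αGal mice lie below all 18h-αGal mice for Sct, Cck, Gip, Ghrl, Sst, Gcg and Pyy.

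At 18 h after αGalCer, Sst and Gcg were higher than in controls, and the other hormones did not pass the test. Sst (ENSMUSG00000004366, chromosome 16 from 23707321 to 23711733 in GRCm39, the build of all gene positions below), which encodes the inhibitory peptide somatostatin, had normalised counts of 1140, 1112 and 796 in control mice and of 1582, 2186 and 3692 in 18h-αGal mice. The lowest 18h-αGal mouse was above the highest control, and the third 18h-αGal mouse stood well above the other two. The log2 fold change of Sst was 1.29 ± 0.27 (SE, adjusted p = 0.0187, edgeR quasi-likelihood test with Benjamini-Hochberg adjustment over 18933 genes). Without 18h-αGal replicate 3 the log2 fold change was 0.90 and still passed (edgeR adjusted p = 0.0128). The call was lost without control replicates 1, 2 or 3 or 18h-αGal replicate 2, with edgeR adjusted p-values of 0.0592, 0.0566, 0.0531 and 0.0513. It was also lost with no low-count filter (edgeR adjusted p = 0.0635) and with the replicate number as a block (0.0627), so under 6 of 16 alternatives.

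Gcg (ENSMUSG00000000394, chromosome 2 from 62304873 to 62313997), the precursor of glucagon-like peptides 1 and 2 in the gut, had normalised counts of 1265, 726 and 868 in control mice and of 1523, 2098 and 2097 in 18h-αGal mice. The groups did not overlap. Its log2 fold change was 1.0 ± 0.22 (SE, edgeR adjusted p = 0.0162). The call was lost without control replicate 2 (edgeR adjusted p = 0.0534) or without 18h-αGal replicate 2 (0.0791).

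Gip (ENSMUSG00000014351, chromosome 11 from 95909127 to 95921657), the incretin of K cells, had counts of 1555, 1314 and 1881 in control mice and of 1676, 3249 and 3212 in 18h-αGal mice. The first 18h-αGal mouse lay within the control range, and the log2 fold change of 0.79 ± 0.30 (SE) did not pass (edgeR adjusted p = 0.167). Without that mouse it was 1.04 and passed (edgeR adjusted p = 0.0283). With all mice kept, DESeq2 called Gip (log2 fold change 0.78, adjusted p = 0.0403) and limma-voom did not (adjusted p = 0.0921). Ghrl (ENSMUSG00000064177, chromosome 6 from 113693080 to 113696844), which encodes the appetite-stimulating peptide ghrelin, had counts of 443, 499 and 399 in controls and of 450, 712 and 806 at 18 h. These groups overlapped as well, and the log2 fold change was 0.55 ± 0.22 (SE, edgeR adjusted p = 0.166).

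Cck and Sct, the hormones of duodenal I and S cells, varied most among the abundant members within the control group. Cck (ENSMUSG00000032532, chromosome 9 from 121315695 to 121324863), whose product drives gallbladder contraction and pancreatic enzyme secretion, had counts of 1598, 973 and 3031 in controls and of 1898, 2366 and 4410 at 18 h. Sct (ENSMUSG00000038580, chromosome 7 from 140858243 to 140859052), whose product drives bicarbonate secretion, had counts of 245, 185 and 397 in controls and of 271, 284 and 331 at 18 h. The groups overlapped for both, with log2 fold changes of 0.65 ± 0.55 for Cck (SE, edgeR adjusted p = 0.587) and 0.12 ± 0.37 for Sct (edgeR adjusted p = 0.899). Annotated genes on the opposite strand overlap Cck (Gm68675 and Gm69828) and Ghrl (Gm26982 and Gm44033), and whether the counting used strand was not stated, so a part of their reads may belong to those genes.

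In all, 2 of the 9 hormones tested rose at 18 h, against 3.27% of all genes tested that were called higher. The mice of the groups did not overlap, with the higher values at 18 h, for the same 2 members and for 11.5% of all genes. The fitted log2 fold change was positive in 8 of 9 members and in 47.6% of all genes, and its median was 0.65 over the members and -0.03 over all genes tested.

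At 72 h, the fitted log2 fold changes against control were negative for all 9 hormones tested, against 49.7% of all genes, and no hormone passed the edgeR test. The share of all genes called lower in this comparison was 0.0264%. Without adjustment, p was under 0.05 for 4 members (Gip, Ghrl, Sst and Gcg), against 3.58% of all genes that were lower at that level. DESeq2 called 1 member, Sst (log2 fold change -1.07, adjusted p = 0.0276), and limma-voom called 0. The 18h-αGal comparison used the same 3 control mice.

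Sst had counts of 476, 549 and 428 in 72h-αGal mice, all below the lowest control mouse at 796. Its log2 fold change was -1.06 ± 0.27 (SE, edgeR adjusted p = 0.670). Ghrl had counts of 186, 250.1 and 250.2, also below every control mouse, with a log2 fold change of -0.95 ± 0.23 (SE, edgeR adjusted p = 0.510). Gip had counts of 872, 1308 and 674, where the highest 72h-αGal mouse was just below the lowest control at 1314, and its log2 fold change was -0.72 ± 0.30 (SE, edgeR adjusted p = 0.826). These 3 members had no overlap with control mice, against 6.3% of all genes that were lower without overlap.

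The remaining abundant members overlapped the controls at 72 h. Gcg had counts of 753, 715 and 485 and a log2 fold change of -0.54 ± 0.22 (SE, edgeR adjusted p = 0.826). Cck had counts of 854, 1289 and 504 and a log2 fold change of -1.06 ± 0.56 (SE, edgeR adjusted p = 0.879). Sct had counts of 126, 268 and 83.9 and a log2 fold change of -0.76 ± 0.38 (SE, edgeR adjusted p = 0.856). In Cck and Sct the second 72h-αGal mouse was the highest and reached the control range. The median log2 fold change over the 9 members was -0.76, beside 0.002 over all genes tested.

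**Figure D2:**
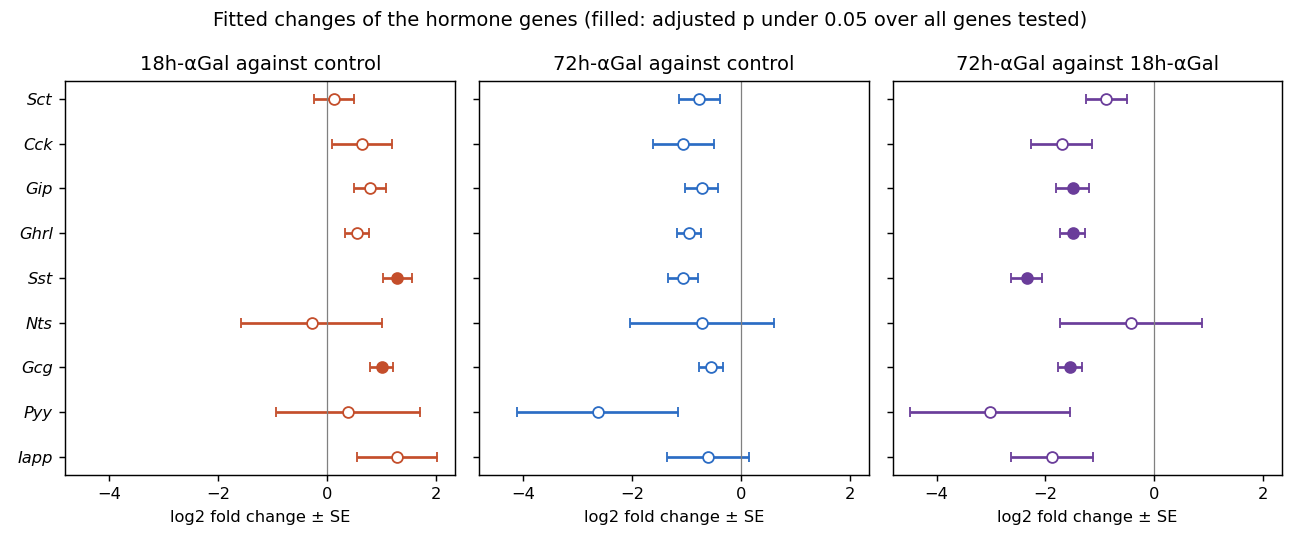
Fitted log2 fold change ± SE of the 9 hormone genes tested (edgeR, n = 3 mice per group), with the contrast of each panel in its title. Filled points passed an adjusted p of 0.05 over all genes tested. Points lie mostly right of 0 in the first panel and all lie left of 0 in the other panels.

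The largest differences lay between the treated groups. From 18 h to 72 h, Sst fell by 2.35 ± 0.28 on the log2 scale (SE, edgeR adjusted p = 0.000782), a 5.09-fold lower level. Gcg fell by 1.54 ± 0.22 (adjusted p = 0.00114), Ghrl fell by 1.5 ± 0.23 (adjusted p = 0.00123) and Gip fell by 1.5 ± 0.30 (adjusted p = 0.0144). The calls of Sst, Gcg and Ghrl were kept under all 16 alternative settings, whereas that of Gip was lost without 18h-αGal replicate 2 (edgeR adjusted p = 0.0511), without 18h-αGal replicate 3 (0.0620), without 72h-αGal replicate 1 (0.0658) and with no low-count filter (0.0581). These 4 of 9 members stand beside 6.04% of all genes called lower in this comparison.

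Cck and Sct were lower in every 72h-αGal mouse than in any 18h-αGal mouse, without passing the test. The log2 fold change was -1.70 ± 0.56 for Cck (SE, edgeR adjusted p = 0.121) and -0.89 ± 0.38 for Sct (adjusted p = 0.164). Without 72h-αGal replicate 2, the mouse with the highest Sct of its group, Sct passed with a log2 fold change of -1.48 (edgeR adjusted p = 0.0214). Cck passed with DESeq2 (adjusted p = 0.0322) and with limma-voom (adjusted p = 0.0108). The 72h-αGal mice lay below the 18h-αGal mice without overlap in 7 members, against 16.3% of all genes, and the fitted change was negative in 9 of 9 members, against 46.6% of all genes. Its median was -1.54 over the members and 0.05 over all genes tested.

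Iapp, Nts, Pyy and Gast were low in this tissue. Iapp (ENSMUSG00000041681, chromosome 6 from 142244149 to 142249688), the amylin precursor, had counts of 49.9, 12.3 and 23.8 in controls, of 16.4, 91.6 and 108 at 18 h and of 6.95, 26.2 and 23.6 at 72 h. Only 2 of the 18h-αGal mice exceeded the controls, and the log2 fold change was 1.29 ± 0.74 at 18 h (SE, edgeR adjusted p = 0.355) and -1.88 ± 0.76 from 18 h to 72 h (adjusted p = 0.135). Nts (ENSMUSG00000019890, chromosome 10 from 102317614 to 102326396) had counts of 17.6, 9.49 and 124 in controls, of 58.0, 16.2 and 41.4 at 18 h and of 24.3, 62.5 and 0 at 72 h. The zero allows up to 2.21 normalised counts in that library, and the sign of the Nts fold change depended on single mice. Its log2 fold change at 18 h was -0.29 ± 1.30 (SE, edgeR adjusted p = 0.937) and turned to 1.49 without control replicate 3, the mouse with 124.

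Pyy (ENSMUSG00000017311, chromosome 11 from 101997502 to 101998658), a satiety peptide of distal L cells, rested on 26 reads in all control mice together, 52 at 18 h and 6 at 72 h. Its normalised counts were 7.05, 0 and 33.3 in controls, 10.1, 19.8 and 19.3 at 18 h and 2.32, 2.02 and 1.47 at 72 h. All values at 72 h were below those at 18 h, and the fitted log2 fold change was -3.01 ± 1.47 (SE, edgeR adjusted p = 0.226). Gast (ENSMUSG00000017165, chromosome 11 from 100218410 to 100227823), the acid-stimulating hormone of antral G cells, had 3 reads in 1 of the 18h-αGal mice, 6 reads in 1 of the 72h-αGal mice and 0 in the other 7 mice, and was not tested. A count of 0 in the control mice allows at most 1.76, 2.85 and 7.13 normalised counts, for replicates 1, 2 and 3. Such limits cover counting error only.

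Because Chga and Chgb, the granin proteins that load dense-core granules, are shared by enteroendocrine subtypes, each hormone was also expressed relative to them, as log2(normalised count + 1) of the hormone minus the mean of the granins on the same scale. The granins themselves moved with the hormones. Chgb averaged 2748 ± 228 normalised counts in controls, 4521 ± 1166 at 18 h and 1306 ± 163 at 72 h (SD, n = 3), with log2 fold changes of 0.72 (edgeR adjusted p = 0.0138) and -1.06 (edgeR adjusted p = 0.0350) against control. Chga averaged 1022 ± 70.5, 1554 ± 302 and 463 ± 96.0, with log2 fold changes of 0.61 (edgeR adjusted p = 0.0469) and -1.13 (edgeR adjusted p = 0.0390). The call of Chgb at 18 h was lost without control replicate 2 alone (edgeR adjusted p = 0.0519), that of Chgb at 72 h under 7 of 16 alternatives and those of Chga under 9 of 16 at either time, with adjusted p-values of up to 0.332, whereas the fall from 18 h to 72 h kept its call for both granins under 16 of 16 alternatives.

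Relative to the granins, Sst was the only abundant member higher in every 18h-αGal mouse than in every control mouse. The ratio was -0.59, -0.52 and -1.10 in controls, -0.51, -0.11 and 0.15 at 18 h and -0.86, -0.57 and -0.60 at 72 h. The difference at 18 h was 0.58 on the log2 scale, and the fall to 72 h was -0.52. Both gave p = 0.1 (exact permutation test, two-sided), the smallest value that 3 against 3 mice allow, so no such ratio could pass 0.05. The difference at 72 h against control was 0.06 (exact permutation p = 0.9).

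The ratio of Gcg was -0.44, -1.13 and -0.98 in controls, -0.56, -0.17 and -0.67 at 18 h and -0.20, -0.19 and -0.42 at 72 h. All 72h-αGal mice lay above the controls, with a difference of 0.58 (exact permutation p = 0.1, two-sided), although the mean Gcg count itself was lower than in controls. Its difference from 18 h to 72 h was 0.20 (exact permutation p = 0.4) and turned to -0.22 with 14 enteroendocrine genes as the reference. The ratio of Sct was higher in every 72h-αGal than in every 18h-αGal mouse, with a difference of 0.71 (exact permutation p = 0.1). The ratios of Cck, Gip and Ghrl overlapped between groups in all 3 comparisons, with differences from -0.13 to 0.35. With 14 enteroendocrine genes as the reference, the difference of Sst was 0.86 at 18 h and -0.94 from 18 h to 72 h.

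**Figure D3:**
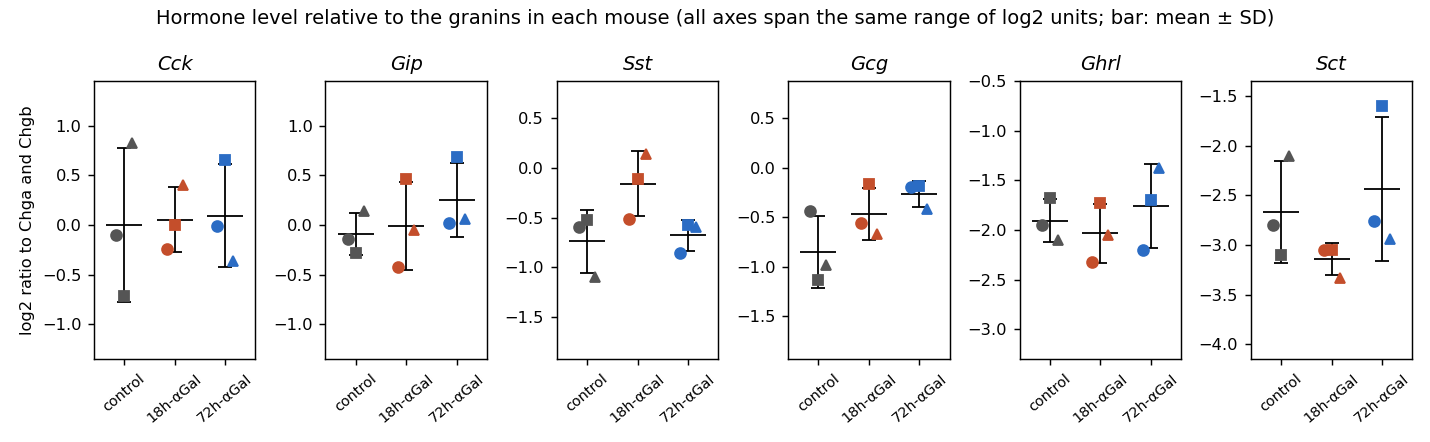
Log2 ratio of 6 hormones to the mean of Chga and Chgb in each mouse, with the mean ± SD of 3 mice per group and an equal span of log2 units on each axis. The 18h-αGal mice of Sst lie above the controls and above the 72h-αGal mice, and the 72h-αGal mice of Gcg lie above the controls.

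Within the summed hormone counts, the share of Sst was 18.0%, 23.0% and 10.5% in control mice, 21.1%, 19.8% and 25.1% at 18 h and 14.4%, 12.3% and 17.4% at 72 h. The 72h-αGal mice lay below the 18h-αGal mice, and the controls overlapped both. The share of Gip was 25.6% ± 1.4 in controls, 24.6% ± 4.26 at 18 h and 27.7% ± 1.44 at 72 h (SD, n = 3). That of Cck ranged from 20.1% to 40.1% over the control mice alone. The share of Gcg was 15.5% ± 4.28 in controls, 17.9% ± 3.21 at 18 h and 19.5% ± 3.41 at 72 h, which are differences within the spread between mice.

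Mice of the same group differed in Cck and Sct along with markers of another cell type. The summed level of the 8 enterocyte markers was 172300, 111300 and 302600 normalised counts in control mice, 182200, 149600 and 248600 at 18 h and 115100, 147000 and 70570 at 72 h. In all 3 groups, the mouse with the highest enterocyte sum had the highest Cck and the highest Sct. In the control and 72h-αGal groups the full order of the mice was the same for the enterocyte sum, Cck, Sct, Gip and Nts, so that control replicate 3 was the highest and 72h-αGal replicate 3 the lowest of its group. Ghrl followed that order in 0 of 3 groups, and in controls it ran the other way, lowest in replicate 3. Gcg followed it in 0 of 3 groups and Sst in 1. All 8 enterocyte markers had a negative log2 fold change at 72 h (median -0.77), 0 of them called, and the mean sum was 195400 ± 97730 in controls and 110900 ± 38380 at 72 h (SD, n = 3). Markers of other cell types moved between the groups as well. The 7 tuft cell markers analysed summed to 4556, 5144 and 2877 normalised counts in control mice, 5152, 7823 and 10190 at 18 h and 3107, 3314 and 5097 at 72 h. At 18 h, Sct, Cck, Ghrl, Sst, Iapp, Chga and Chgb had the same order of mice as the tuft sum. Sst did not have that order in the control or 72h-αGal group, whereas Ghrl had it in every group. At 18 h the tuft sum also ran opposite to the total counts, which were 30802477, 21567453 and 14951274 in replicates 1, 2 and 3. Few orders are possible with 3 mice, and the share of all genes that match the order of either marker sum was not computed. All 6 tuft markers tested had a positive log2 fold change at 18 h (median 0.95) and a negative one from 18 h to 72 h (median -0.94). Avil was called in both comparisons (log2 fold changes 1.21 and -1.08, edgeR adjusted p = 0.0189 and 0.0224) and Trpm5 in the second (-1.17, edgeR adjusted p = 0.0109). The 6 stem cell markers went the opposite way, with sums of 68460, 82380 and 42510 in control mice, 39660, 29910 and 11720 at 18 h and 65850, 54740 and 86240 at 72 h. Their median log2 fold change was -1.23 at 18 h and 1.31 from 18 h to 72 h, where Axin2 was called (1.64, edgeR adjusted p = 0.0218). Elsewhere among the marker lists, the goblet cell gene Agr2 rose at 18 h (0.66, edgeR adjusted p = 0.0359), the region marker Osr2 fell by 0.81 at 18 h (edgeR adjusted p = 0.0452) and the epithelial keratin gene Krt18 was higher at 72 h than at 18 h by 0.54 (edgeR adjusted p = 0.0297). Of 16 alternatives, the calls of Avil were kept under 13 and 12, that of Trpm5 under 15, Axin2 under 12, Agr2 under 7, Osr2 under 6 and Krt18 under 11, with edgeR adjusted p-values of up to 0.142. The part of these markers in the hormone differences was not tested.

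**Figure D4:**
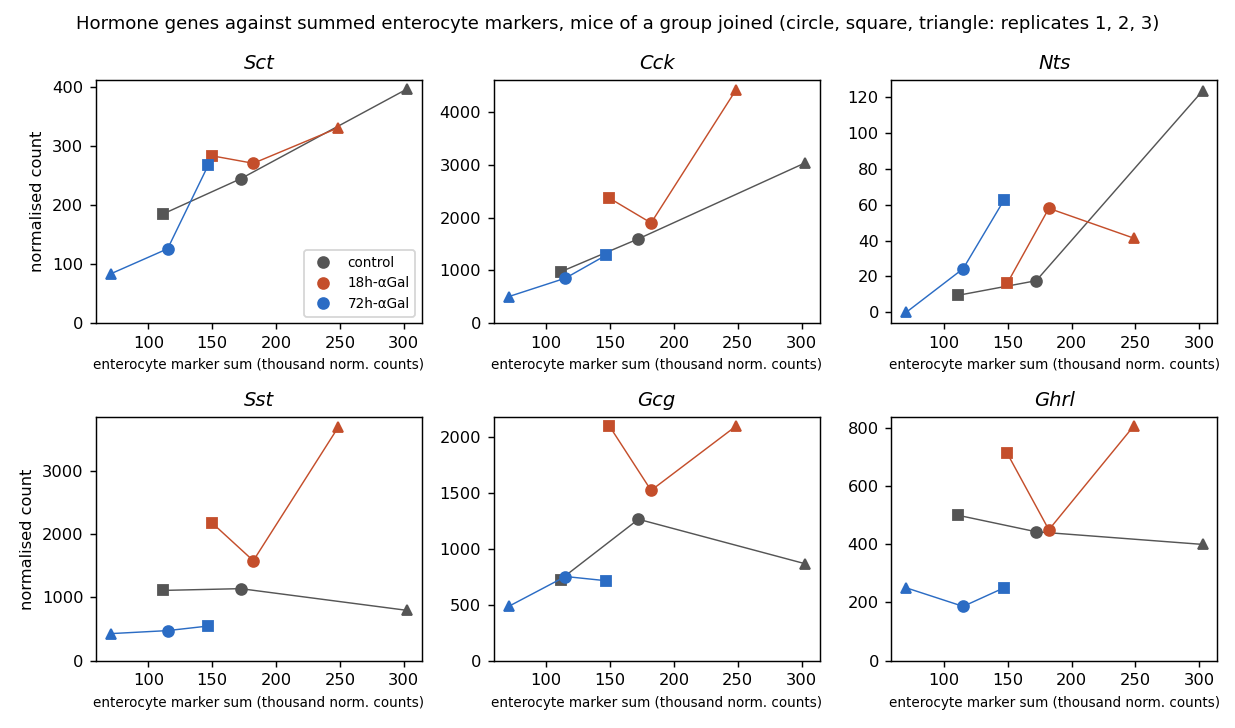
Normalised count of 6 hormone genes (linear vertical axis) against the summed normalised count of 8 enterocyte markers (axis numbers times 1000), with the mice of each group joined by a line. Lines of Sct, Cck and Nts climb from left to right in the control and 72h-αGal groups, and the control line of Ghrl descends.

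Of 9 tested genes that mature the peptides, 2 rose at 18 h, 3 fell from 18 h to 72 h and the other 6 passed in no comparison. Pam, which amidates peptide ends, had a log2 fold change of 0.78 ± 0.18 at 18 h (SE, edgeR adjusted p = 0.0181) and Cpe, the carboxypeptidase that trims basic residues, one of 0.78 ± 0.22 (edgeR adjusted p = 0.0483). The call of Cpe was kept under 6 of 16 alternatives and that of Pam under 13, with edgeR adjusted p-values of up to 0.177 and 0.0897. Pcsk1, the proprotein convertase 1/3, fell by 1.32 ± 0.18 from 18 h to 72 h (SE, edgeR adjusted p = 0.000624), Cpe fell by 1.32 ± 0.22 (adjusted p = 0.00214) and Pam fell by 1.03 ± 0.18 (adjusted p = 0.00263). Against control, 0 of the 9 were called at 72 h, and their median log2 fold change was -0.54. Of 7 peptidases that degrade gut peptides, 0 were called in any comparison.

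Among 15 tested receptors, transporters and channels that sense nutrients and bile acids, 1 rose at 18 h, 0 were called at 72 h against control and 5 fell from 18 h to 72 h. The irritant channel Trpa1 fell by 2.26 ± 0.26 on the log2 scale (SE, edgeR adjusted p = 0.000162), the fatty acid receptors Ffar1 and Ffar2 fell by 2.23 ± 0.39 (adjusted p = 0.00287) and 1.52 ± 0.40 (adjusted p = 0.0246), the calcium-sensing receptor Casr fell by 2.14 ± 0.60 (adjusted p = 0.0344) and Lpar5, a lysophosphatidic acid receptor, fell by 0.59 ± 0.15 (adjusted p = 0.0243). The calls of Trpa1 and Ffar1 were kept under 16 of 16 alternatives, and those of Ffar2, Casr and Lpar5 under 9, 8 and 11. The gene called at 18 h was Lpar5, with a log2 fold change of 0.56 ± 0.16 (SE, edgeR adjusted p = 0.0449), kept under 6 of 16 alternatives and reaching an adjusted p of 0.182. The list's median was 0.51 at 18 h and -0.89 at 72 h against control.

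Of 21 transcription factors of the enteroendocrine lineage, 0 were called at 18 h, 1 fell at 72 h and 6 fell between 18 h and 72 h. Neurod1, which acts downstream of Neurog3, averaged 836 ± 83.6 normalised counts in controls, 1083 ± 181 at 18 h and 363 ± 14.7 at 72 h (SD, n = 3). Its log2 fold change at 72 h against control was -1.19 ± 0.16 (SE, edgeR adjusted p = 0.0170), a call kept under 10 of 16 alternatives and reaching an adjusted p of 0.194. From 18 h to 72 h, the log2 fold change (± SE) was -1.57 ± 0.16 for Neurod1, -1.03 ± 0.20 for Rfx6, -1.28 ± 0.26 for Isl1, -1.58 ± 0.37 for Fev and -0.99 ± 0.27 for Nkx2-2. Their edgeR adjusted p-values ran from 7.76e-05 for Neurod1 to 0.0297 for Nkx2-2, and the calls of Fev and Nkx2-2 were lost under 4 and 6 of the 16 alternatives. Of 14 genes shared by enteroendocrine subtypes, 2 rose at 18 h, 2 fell at 72 h against control and 11 fell from 18 h to 72 h, among them Rab3c (-1.70 ± 0.21, SE), Vwa5b2 (-1.12 ± 0.20), Gfra3 (-1.22 ± 0.22) and Celf3 (-1.06 ± 0.21).

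**Figure D5:**
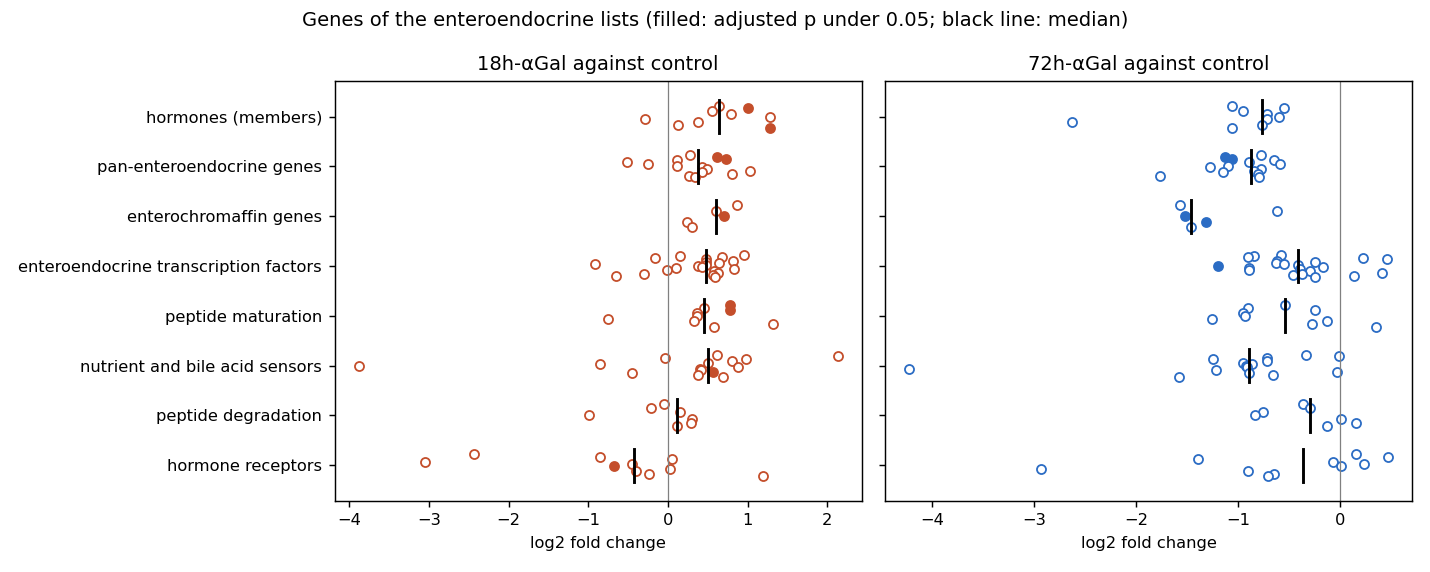
Fitted log2 fold changes of the hormone genes and of 7 related gene lists for 18h-αGal and 72h-αGal against the same control mice. Points are genes, filled where the adjusted p was under 0.05, and black lines are medians. The hormone median is 0.65 at 18 h and -0.76 at 72 h.

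Among 23 other gut peptide precursors, 7 were tested, of which 2 rose and 1 fell at 18 h, 1 fell at 72 h against control, and 1 was higher and 2 were lower at 72 h than at 18 h. Tac1, which encodes substance P and is made in enterochromaffin cells, averaged 421 ± 89.6 normalised counts in controls, 690.2 ± 70.0 at 18 h and 146 ± 14.4 at 72 h (SD, n = 3), with log2 fold changes of 0.71 ± 0.20 (SE, edgeR adjusted p = 0.0495) and -1.52 ± 0.21 (adjusted p = 0.0170) against control. These calls were kept under 4 and 9 of 16 alternatives, with adjusted p-values of up to 0.133 and 0.194. Guca2a, the guanylin precursor, rose by 0.74 ± 0.21 at 18 h (SE, edgeR adjusted p = 0.0479), kept under 7 of 16 alternatives and reaching an adjusted p of 0.161. Edn1, the endothelin 1 precursor, went the opposite way. It fell by 2.48 ± 0.36 at 18 h (SE, edgeR adjusted p = 0.00191) and was higher at 72 h than at 18 h by 2.44 ± 0.36 (adjusted p = 0.00143), with both calls kept under 16 of 16 alternatives. Of 5 enterochromaffin genes, Tac1 among them, 1 rose at 18 h, 2 fell at 72 h against control and 4 fell from 18 h to 72 h. Tph1, the rate-limiting enzyme of gut serotonin synthesis, had a log2 fold change of -1.32 ± 0.15 at 72 h against control (SE, edgeR adjusted p = 0.00512), a call lost without control replicate 1, 72h-αGal replicate 1 or 72h-αGal replicate 3, reaching an adjusted p of 0.0821. Slc18a1 fell by 1.22 ± 0.18 and Lmx1a fell by 2.43 ± 0.48 from 18 h to 72 h (edgeR adjusted p = 0.00104 and 0.00618).

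Receptors for these hormones were mostly low in the sorted epithelium, where 10 of 24 were tested. Sort1, a sorting receptor that also binds neurotensin, was the abundant one, with 8166 ± 775 normalised counts in controls, 5098 ± 523 at 18 h and 8161 ± 410 at 72 h (SD, n = 3). It fell by 0.67 ± 0.11 on the log2 scale at 18 h (SE, edgeR adjusted p = 0.00316) and was higher by 0.69 ± 0.11 at 72 h than at 18 h (adjusted p = 0.00201). No other receptor of the list was called in any comparison.

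The labelled tissue was checked against markers of neighbouring organs that make the same peptides. Duodenal Gata4 had 5720 to 7976 and Onecut2 6848 to 10950 normalised counts, whereas the ileal genes Fabp6 and Slc10a2 had at most 11.9 and 20.9. The 9 stomach markers analysed summed to between 242 and 820 normalised counts in controls, 207 to 271 at 18 h and 290 to 707 at 72 h. Among them Tff1, Gkn1 and Atp4b were at 0 in at least 1 mouse of every group, and only Gkn3 was called, with 307 ± 189 in controls and 19.6 ± 15.0 at 18 h (SD, n = 3, edgeR adjusted p = 0.0146). At 72 h it was 264 ± 141, higher than at 18 h (edgeR adjusted p = 0.0123). Gkn3 was the largest part of the stomach sum in control and 72h-αGal mice. It fell and rose as the stem cell markers did, with the same order of mice as their sum in controls and at 18 h. Whether it came from stomach was not tested. Pancreatic acinar markers summed to 278 to 1257 in controls, 633 to 1400 at 18 h and 564 to 1006 at 72 h. Clps alone made up most of each sum, with 554, 1190 and 226 in controls, 600, 1284 and 628 at 18 h and 717, 460 and 958 at 72 h. Of the 12 acinar genes listed, 3 passed the low-count filter. Of the islet list, Mafa had 3.59 to 13.9 normalised counts, and Ins1, Ins2, Ppy and G6pc2 were not analysed here. Slc2a2, a glucose transporter that enterocytes also express, made up nearly all of the islet sum, with 6161, 3456 and 7998 in controls, 6237, 5444 and 8182 at 18 h and 2748, 4468 and 1757 at 72 h. The islet list's median log2 fold change, over Slc2a2 and the member Iapp, was 0.73 at 18 h and -1.51 from 18 h to 72 h, with 0 called. Leukocyte, stromal and enteric neuron markers summed to at most 211, 117 and 263 normalised counts per mouse.

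The 5 genes whose pattern over the 9 libraries was most like the mean of the 9 hormones, out of 10898 genes with a mean of at least 100 normalised counts, were Rhou (Pearson r = 0.99), Abhd3 (0.98), 4833439L19Rik (0.98), Slc25a44 (0.98) and Aplp1 (0.98), on log2 CPM with each hormone standardised. The libraries fall into 3 groups that share this pattern, so these values describe likeness across groups and mice together.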

How the data were processed

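RNA from sorted epithelial cells of 9 mice (3 per group) was sequenced by the authors as 100 bp reads after ribosomal depletion and directional library preparation. Per the labels and methods, reads were mapped with HISAT2 and counted per gene with featureCounts of the Subread package, as credited by the submitters' processing notes. The methods name build GRCm39 and the processing notes GRCm38 and mm10, and the strand setting and annotation release are not given in the sources used here. The authors deposited raw read counts per gene, which entered the tests. The authors also deposited a normalised signal, the count divided by a DESeq2 size factor per library, which is printed here as normalised counts and carries no correction for gene length. Of 29288 identifiers, 28480 matched GENCODE vM39 on GRCm39, which gave symbols, positions and lengths, and coordinates stem from that match, not from the deposited tables.

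Counts were filtered with filterByExpr and tested in edgeR 4.0.16 (TMM factors, robust quasi-likelihood F test, group as the only term, all 9 libraries in the same fit), with Benjamini-Hochberg adjustment over 18933 genes and a threshold of 0.05. Ratios to Chga and Chgb used a pseudocount of 1 and exact two-sided permutation tests. Levels between genes were compared per kilobase of exon or of coding sequence. The fit was also run on simulated counts with less spread than these data, whose common dispersion was 0.123. That run therefore does not show how the fit performs at the spread of these mice. Alternatives were DESeq2 1.42.0, limma-voom (limma 3.58.1), RLE and upper-quartile factors, no low-count filter, only the 2 groups compared, the replicate number as a block, and leaving out each library. Total counts of 8887861 to 32722293 put a floor of 3 counts at 0.0917 to 0.338 CPM. Floors hold for counting error alone, as PCR copies were not told apart from separate molecules. Replicates of each group differed by more than counting noise. The labels name separate samples, and p-values measure the spread between these samples.

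The members and gene lists were chosen with earlier results of these data known. Named are all 10 members, per list the called genes (at most 6, by adjusted p; 1 of these is not reported here) and the 5 most alike genes. The alternatives for called list genes were added after seeing the data.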

Additional observations from a re-analysis of the deposited data

Results flagged for a closer look

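For 4 hormones the difference from the same control mice was not equal at the sampled times, by the direct test of 72h-αGal against 18h-αGal mice (edgeR quasi-likelihood test with Benjamini-Hochberg adjustment over 18933 genes). The control mice, all labelled 18 h, cancel in this contrast, so treatment and time of sampling cannot be told apart in it. The log2 fold change at 72 h minus that at 18 h was -2.35 for Sst, -1.54 for Gcg, -1.50 for Ghrl and -1.50 for Gip, with 3 mice in each group. All 3 of the 72h-αGal mice lay below all 3 of the 18h-αGal mice in each of these genes. Sst and Gcg had passed at 18 h against control, whereas Ghrl and Gip passed neither comparison with the control mice in the edgeR fit of all libraries. In that fit the difference of Ghrl and Gip rests on a fitted rise and a fitted fall that each did not pass. Gip did pass at 18 h with DESeq2 (adjusted p = 0.0403) and without 18h-αGal replicate 1 (edgeR adjusted p = 0.0283).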

How the results depend on the processing

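Of 431 refits of the 27 hormone fold changes, 404 kept their direction and side of the threshold, 12 lost and 6 gained a call, and 9 changed sign. The count of hormones called at 18 h was 2, and it was 1 with no low-count filter and 1 with the replicate block. DESeq2 called Gip (adjusted p = 0.0403) in addition to Sst and Gcg. The count ranged from 0 to 3 when single libraries were left out. Over all genes the calls at 18 h were 1128 of 18933, 1527 of 29288 with no filter, 781 of 18933 with the block and 1657 of 29288 with DESeq2. Without single libraries they ranged from 432 of 20046 to 1556 of 20326. At 72 h against control the hormone count was 0, and 1 with DESeq2, and from 0 to 0 without single libraries. Over all genes 5 were called there, 30 of 29288 with DESeq2 and 0 to 20 without single libraries. From 18 h to 72 h the hormone count was 4, with a range of 3 to 5, beside 1936 genes, with a range of 831 to 2593 without single libraries. Under the replicate block Sst at 18 h had a log2 fold change of 1.25 (edgeR adjusted p = 0.0627), and no other hormone call changed. The labels give replicate numbers without saying whether they pair the mice. The deviations of same-numbered mice from their group means correlated between -0.15 and 0.115 across genes. Such values cannot exclude a weak effect shared by same-numbered mice. Direction changed only for low or variable members. Nts at 18 h was 0.91 with limma-voom. With single libraries left out, the log2 fold change of Nts ranged from -0.80 to 1.49 at 18 h, from -2.01 to 1.07 at 72 h and from -1.72 to 0.17 from 18 h to 72 h, that of Sct at 18 h from -0.093 to 0.45, that of Pyy at 18 h from -0.24 to 2.13 and that of Iapp at 72 h from -0.97 to 0.15. Of 216 alternative ratios to the granins, 7 moved by more than 1 SD, among them Gip, Ghrl and Gcg from 18 h to 72 h, which turned to -0.16, -0.15 and -0.22 with 14 reference genes. The cause of these shifts was not tested. Pyy at 72 h gave no value with only the 2 groups compared, where it failed the low-count filter. The called genes of the other lists kept their direction under all 16 alternatives. Pyy and Gast rested on few reads (at most 52 and 6 per group).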
